A study of Homo sapiens with 3 samples.

Results

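Nonmuscle myosin II, the motor that pulls actin filaments together in cells outside muscle, was followed through 10 genes for its chains and the kinases that switch it on. They are the heavy chains MYH9, MYH10 and MYH14, the light chains MYL6, MYL9, MYL12A and MYL12B, and the kinases MYLK, ROCK1 and ROCK2. The genes were chosen by symbol, with MYH10 and MYL9 picked in the knowledge that their signals differ between these arrays, so their differences are a description. All 10 were on the array, with 30 probe sets that the platform annotation gives to a single one of them, among 41091 probe sets with 1 symbol and 19775 genes in all.

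Each of 3 lines of HT1080, an established human fibrosarcoma cell line, was measured on 1 Affymetrix array. The line called RECK was stably transfected with a RECK vector, and the line called RECK/4NQ with the same vector for RECK in which 4 asparagines, sites of N-linked glycans, were changed to glutamine. Zeo is the mock-transfected line. The medium of all 3 held 10% fetal calf serum, with 50 µg/mL of the selection drug Zeocin, and the labels leave it unsaid if each line came from 1 clone or many. RECK is a membrane-anchored inhibitor of matrix metalloproteinases. With 1 array per line there is no replicate, no SD and no test, and a difference between lines cannot be told apart from a difference between cultures, clones or arrays.

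Each nonmuscle myosin II molecule is a pair of heavy chains, each carrying an essential and a regulatory light chain. Among the members MYL6 is an essential light chain, and MYL9, MYL12A and MYL12B are regulatory ones. The heavy chain gene sets the isoform: MYH9 gives IIA, MYH10 gives IIB and MYH14 gives IIC. Phosphorylation of the regulatory light chain by MYLK, which calmodulin activates, or by the kinases ROCK1 and ROCK2 lets the motor form filaments and contract, and the myosin phosphatase reverses it. In fibroblasts and tumour cells these motors drive stress fibre tension, rear retraction and division.

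The promoters of 3 members are shown because these genes differ in the data below: MYH10, whose signal was low in RECK alone, its paralogue MYH9, whose signals were close on all arrays, and MYLK, whose 2 bright probe sets read above Zeo in both transfected lines. Each runs 5′ to 3′ along the gene, 250 bases before to 50 bases after a transcript start in RefSeq (GRCh38.p14). Capitals mark 3 motifs on either strand: GGGCGG, the core bound by SP1, GGAATG, the core bound by TEAD factors, and the CArG box, bound by SRF. MYH10 lies on the minus strand at chr17:8630676-8630975, MYH9 on the minus strand at chr22:36387918-36388217 and MYLK on the minus strand at chr3:123620499-123620798.
MYH10: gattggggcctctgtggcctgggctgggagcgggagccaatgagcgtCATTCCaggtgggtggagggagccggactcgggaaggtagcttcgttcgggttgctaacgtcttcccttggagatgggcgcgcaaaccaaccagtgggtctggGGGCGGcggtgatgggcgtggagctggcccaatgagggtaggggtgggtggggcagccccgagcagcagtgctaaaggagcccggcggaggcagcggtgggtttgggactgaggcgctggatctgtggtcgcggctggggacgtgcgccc
MYH9: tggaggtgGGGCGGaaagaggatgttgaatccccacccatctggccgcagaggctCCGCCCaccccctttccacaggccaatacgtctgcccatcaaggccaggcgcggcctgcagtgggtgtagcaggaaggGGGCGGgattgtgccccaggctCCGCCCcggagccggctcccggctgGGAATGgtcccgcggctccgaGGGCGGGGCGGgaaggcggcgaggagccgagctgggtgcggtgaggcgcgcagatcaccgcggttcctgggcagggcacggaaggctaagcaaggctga
MYLK: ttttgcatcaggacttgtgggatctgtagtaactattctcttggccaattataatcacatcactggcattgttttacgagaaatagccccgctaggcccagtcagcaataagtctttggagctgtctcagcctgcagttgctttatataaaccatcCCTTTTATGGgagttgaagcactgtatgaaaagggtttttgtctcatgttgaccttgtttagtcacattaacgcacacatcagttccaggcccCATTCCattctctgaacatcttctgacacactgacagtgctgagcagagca

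The MYH10 window held 1 GGGCGG and 1 GGAATG, and the MYH9 window 6 GGGCGG, of which the last 2 overlap by a base, and 1 GGAATG. The MYLK window held no GGGCGG, 1 GGAATG and 1 CArG box, which starts at -94 from the start used for this window. Which MYLK transcript begins there was not given, so the window is not taken as the promoter of the kinase form. Of 35116 promoter windows of this length, 45.0% held GGGCGG, 14.0% GGAATG and 1.29% a CArG box. Among the members not printed, ROCK2 also had a window with 1 CArG box, at -73 from its start. In the tables used here 9 of the 10 members had a promoter, and MYL9 was not matched. These matches are letters in a window and carry no measurement.

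The values are linear intensities from MAS5, and a floor of 12.3, which is their 40th percentile, replaced lower values before ratios were taken. A gene stands for its brightest probe set, and a difference of at least 2-fold is called higher or lower. Since no replicate gives an error, each log2 ratio is set beside the median and the robust spread of log2 ratios over 1000 genes of like level, a spread that holds real differences as well as noise. RECK, the transfected gene, was under 2-fold higher in both transfected lines. Its brightest probe set read 387 in RECK, 442 in RECK/4NQ and 264 in Zeo, 1.47-fold and 1.68-fold above Zeo. Of its other 4, none was past 2-fold higher in RECK, 1 was in RECK/4NQ (at least 2.05-fold) and 1 was below the floor in both lines but at 26.2 in Zeo. Whether the vector carries the stretches these probes read is not given in the labels, so the array does not check them. Median signals were 17.9 on the RECK array, 17.3 on the RECK/4NQ array and 20.3 on the Zeo array. Over all genes that reached the floor on every array the median log2 ratio to Zeo was -0.19 in RECK and -0.11 in RECK/4NQ. Between the transfected lines (RECK over RECK/4NQ) it was -0.08. Both comparisons with Zeo share its 1 array. The mesenchymal marker VIM had signals of 10704 in RECK, 10611 in RECK/4NQ and 10307 in Zeo, while the epithelial marker EPCAM was below the floor on all 3. Of the other mesenchymal markers, COL1A1 read 139, 189 and 215 and COL1A2 20.4, 2.31 and 26.2 in that order, and SPARC, FN1 and CD44 were each bright, with FN1 the lowest of them at 2444 in Zeo. Of 6 epithelial markers, KRT18 was the only one that no array had under the floor, at 7371, 8807 and 9895 in the same order. Summed signals of the mesenchymal markers were 20245, 21827 and 20007, of the striated muscle markers 167, 100 and 204, of the endothelial markers 88.2, 86.8 and 118 and of the leukocyte markers 43.2, 46.3 and 68.8, with no marker at 0.

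Of the 10 members, 1 was higher in RECK than in Zeo (MYL9), 1 was lower (MYH10) and 8 were not past 2-fold. Among all genes 4.03% were higher and 6.70% lower, and since MYH10 and MYL9 were picked for these differences nothing is read from the count. In RECK/4NQ over Zeo, 0 members were higher and 1 was lower (MYL9), against 2.81% and 7.13% of all genes. In RECK over RECK/4NQ, 1 was higher (MYL9) and 1 lower (MYH10), against 5.76% and 4.47% of all genes. The members' median log2 ratio to Zeo was -0.48 in RECK and -0.14 in RECK/4NQ, and it was -0.06 between the transfected lines. Of called genes, 37.5% were higher in RECK over Zeo as deposited, 54.0% after median centring and 53.7% after quantile normalisation, and for RECK/4NQ over Zeo these shares were 28.3%, 53.1% and 46.0%.

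**Figure D1:**
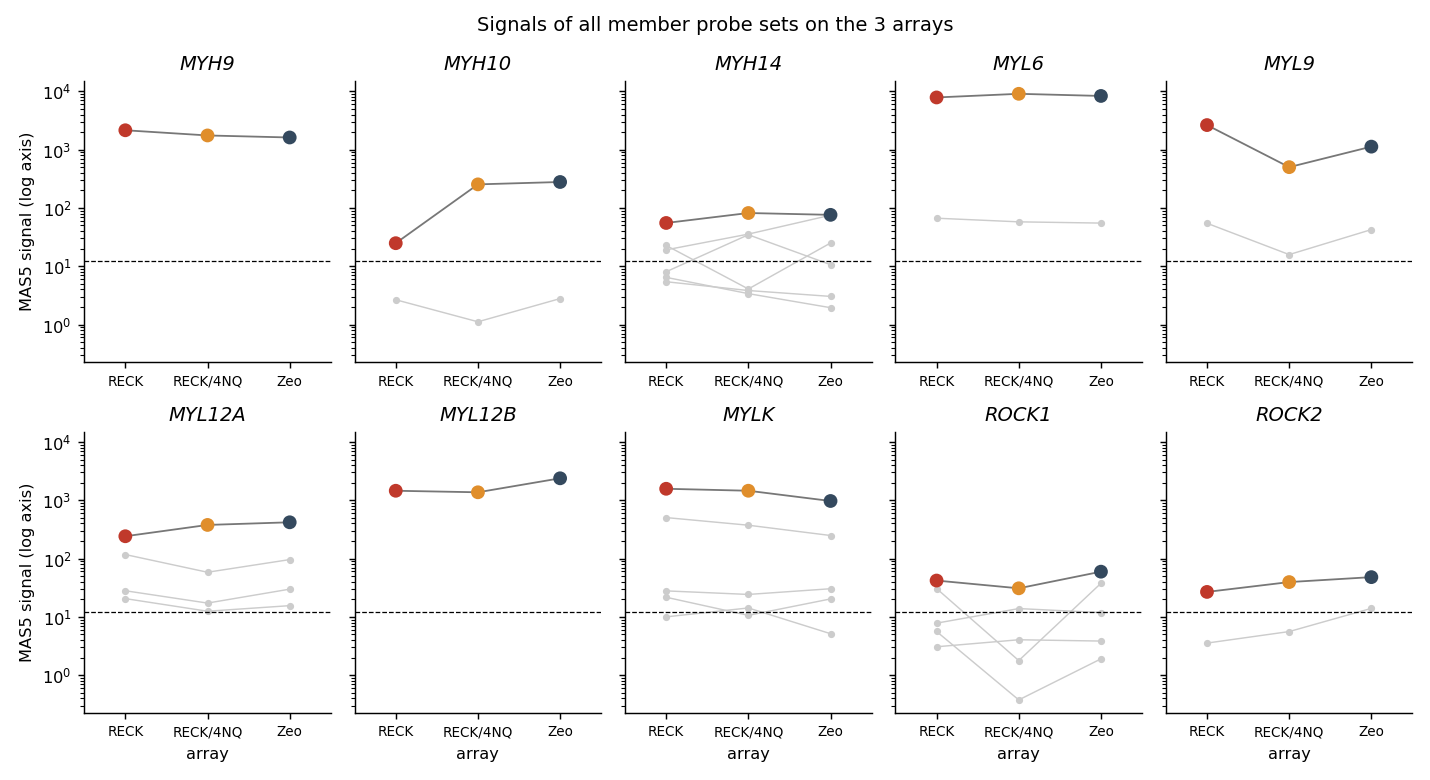
MAS5 signals (log axis) of all 30 member probe sets on the RECK, RECK/4NQ and Zeo arrays, 1 array each, with the brightest probe set of a gene in colour, the others in grey and the floor of 12.3 as a dashed line. MYH10 is lowest on the RECK array, at 24.8, and both MYL9 probe sets are lowest on the RECK/4NQ array.

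Among the heavy chains, MYH10, which encodes myosin IIB, had a signal of 24.8 in RECK, 253 in RECK/4NQ and 278 in Zeo. The RECK array stood alone at the low end, while the other two were near each other. The signal in RECK was 11.2-fold below Zeo, a log2 ratio of -3.49 that lies -6.89 spreads from the median of genes of like level, and 2 of 13310 genes measured on both arrays had a lower ratio. Against RECK/4NQ it was 10.2-fold lower, a log2 ratio of -3.35. RECK/4NQ and Zeo differed 1.10-fold, a log2 ratio of -0.14, where the spread of like genes was 0.46. It became 0.12 after median centring and -0.06 after quantile normalisation. In RNA from a whole culture, fewer cells with a transcript and less of it per cell cannot be told apart.

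These MYH10 values rest on 1 probe set. The second was below the floor on every array, at 2.66 in RECK, 1.11 in RECK/4NQ and 2.78 in Zeo, and so gives no ratio. The RECK signal of the first probe set was itself near the floor, and with a floor at the 60th percentile the log2 ratio was a bound of -3.32. The signal in RECK was low in the same direction after either rescaling, with log2 ratios to Zeo of -3.30 and -3.35.

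MYH9, the heavy chain of myosin IIA and the main isoform of many fibroblasts, had signals of 2148 in RECK, 1750 in RECK/4NQ and 1615 in Zeo. All arrays were within 1.33-fold of each other. Its log2 ratio to Zeo was 0.41 in RECK, 1.83 spreads above genes of like level, and 0.12 in RECK/4NQ, within 1 spread. The MYH9 and MYH10 ratios of RECK to Zeo thus have opposite signs, the one of MYH9 under 2-fold. MYH9 has a single probe set, whose name marks probes that may hit more than 1 transcript.

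MYH14, the heavy chain of myosin IIC, was dim. Its brightest probe set read 55.2 in RECK, 81.8 in RECK/4NQ and 76.1 in Zeo, a log2 ratio to Zeo of -0.46 in RECK and 0.10 in RECK/4NQ, both within 1 spread. Its other 5 probe sets did not give 1 order of the arrays. One read 19.1 in RECK, 35.6 in RECK/4NQ and 74.9 in Zeo, 3.93-fold and 2.11-fold below Zeo. Another read 8.04, 34.7 and 10.6 on these arrays, where RECK/4NQ was at least 2.83-fold above Zeo, and a further one 22.7, 4.07 and 25.0. The remaining 2 were below the floor throughout, so no direction is given for MYH14.

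MYL9, a regulatory light chain best known from smooth muscle, had signals of 2636 in RECK, 500.4 in RECK/4NQ and 1125 in Zeo. RECK was the high array and RECK/4NQ the low one, with Zeo between. RECK was 2.34-fold above Zeo, a log2 ratio of 1.23 and 4.08 spreads above genes of like level. RECK/4NQ was 2.25-fold below Zeo, a log2 ratio of -1.17 that lies -3.67 spreads from such genes. Between the transfected lines RECK was 5.27-fold higher, a log2 ratio of 2.40 and 7.28 spreads, and 38 of the genes measured on both arrays had a larger ratio.

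The second MYL9 probe set kept this order at lower signals, with 54.6 in RECK, 15.8 in RECK/4NQ and 42.5 in Zeo. It was 3.45-fold higher in RECK than in RECK/4NQ and 2.68-fold lower in RECK/4NQ than in Zeo. Its difference between RECK and Zeo was 1.28-fold, a log2 ratio of 0.36, so the step above Zeo past 2-fold was seen with the brighter probe set alone. After median centring the log2 ratio of RECK/4NQ over Zeo was -0.92, short of 2-fold. This centring used all genes, also those below the floor. It left genes that reached the floor on every array at a median of 0.13 in this comparison. With the -0.11 median of such genes taken off instead, MYL9 was at -1.06, and after quantile normalisation at -1.11. Smooth muscle markers were set beside this result: of 5 with a probe set, 4 reached the floor in RECK, 3 in RECK/4NQ and 4 in Zeo. Their summed signals were 1539, 1259 and 1550 on these arrays, most of it from SMTN, and none was at 0. The smooth muscle heavy chain MYH11 read 23.1, 14.3 and 16.3, desmin (DES) 33.0, 27.5 and 51.8, CNN1 14.3, 4.47 and 3.55, LMOD1 8.68, 7.35 and 23.0 and SMTN 1459, 1206 and 1456. All but CNN1 were lowest in RECK/4NQ, and for RECK against Zeo they did not share a direction. A link between these markers and the MYL9 result was not tested.

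**Figure D2:**
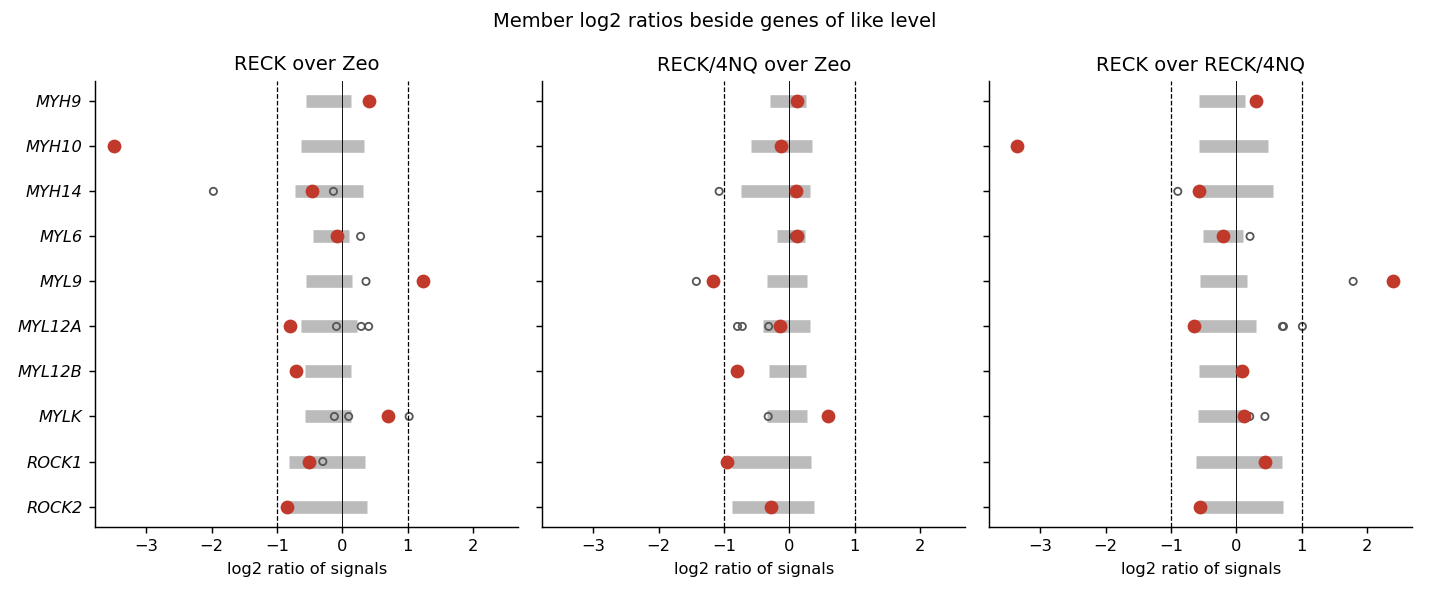
Log2 ratios (x axis) of the 10 members in 3 comparisons, with filled points for the brightest probe set, open points for other probe sets measured on both arrays, grey bars for the median ± 1 robust spread of the 1000 genes of like level and dashed lines at 2-fold. MYH10 lies at -3.49 and -3.35 in the comparisons of RECK, and MYL9 at 1.23, -1.17 and 2.40 from left to right.

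The regulatory light chains MYL12A and MYL12B, neighbouring genes with nearly the same coding sequence, are the forms found in most cells. MYL12B had a signal of 1456 in RECK, 1370 in RECK/4NQ and 2381 in Zeo. Both transfected lines were below Zeo, 1.64-fold in RECK and 1.74-fold in RECK/4NQ, at -1.39 and -2.70 spreads from genes of like level. Neither passed 2-fold, and the transfected lines were within 1.06-fold of each other. MYL12A read 241 in RECK, 377 in RECK/4NQ and 419 in Zeo by its brightest probe set, with RECK 1.74-fold below Zeo. Its log2 ratio of RECK/4NQ to Zeo was -0.15, which became 0.10 after median centring and -0.09 after quantile normalisation.

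The other 3 probe sets of MYL12A did not share that order. At signals of 117, 58.2 and 96.0 in RECK, RECK/4NQ and Zeo, the brightest of them put RECK highest, 2.01-fold above RECK/4NQ. The other 2 also had RECK above RECK/4NQ, by 1.65-fold and 1.63-fold. Outside the 30 probe sets, 1 is annotated to MYL12A and MYL12B together, and it read 1089 in RECK, 1468 in RECK/4NQ and 1713 in Zeo. It had the order of the brightest MYL12A probe set and a 1.57-fold difference between RECK and Zeo.

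MYL6, the essential light chain among the members, had the brightest probe set of the group. It read 7849 in RECK, 9064 in RECK/4NQ and 8328 in Zeo, and all 3 arrays lay within 1.15-fold. Brightness depends on the probes and does not rank genes. Its second probe set read 66.6, 57.7 and 54.9, also within 1.21-fold. Both log2 ratios to Zeo of the first, -0.09 in RECK (0.10 after median centring) and 0.12 in RECK/4NQ, were within 1 spread.

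Among the kinases, MYLK, the calmodulin-activated myosin light chain kinase, had signals of 1574 in RECK, 1456 in RECK/4NQ and 972 in Zeo. Both transfected lines were above Zeo, with log2 ratios of 0.70 in RECK (1.62-fold) and 0.58 in RECK/4NQ, which is 2.60 and 2.03 spreads above genes of like level. A second bright probe set gave the same order, with 504.5, 373 and 249 on the 3 arrays, and log2 ratios of 1.02 (2.03-fold) and 0.59. The 3 dim probe sets did not share a direction. They read 21.7, 10.6 and 20.3, then 27.9, 24.2 and 30.4, and then 10.0, 14.2 and 5.14 in RECK, RECK/4NQ and Zeo, and none was past 2-fold after flooring. RECK and RECK/4NQ differed 1.08-fold by the brightest probe set, within 1 spread.

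ROCK1 and ROCK2, the kinases that phosphorylate the regulatory light chain and hold the myosin phosphatase off, were dim. ROCK1 read 42.0 in RECK, 30.9 in RECK/4NQ and 59.6 in Zeo by its brightest probe set. Both transfected lines were below Zeo, RECK 1.42-fold and RECK/4NQ 1.93-fold. A second probe set read 30.6, 1.78 and 37.7 on these arrays and was at least 3.07-fold lower in RECK/4NQ than in Zeo. The other 3 were below the floor on at least 2 arrays, and a near-identical pseudogene of ROCK1 is known, so shared probes are possible. ROCK2 read 26.8 in RECK, 39.5 in RECK/4NQ and 48.0 in Zeo, 1.79-fold and 1.22-fold below Zeo, where the spread of genes of like level was 0.60 and 0.63 in log2. Its second probe set was above the floor in Zeo alone, at 14.0.

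Over the 30 probe sets, 18 reached the floor on every array, 7 fell below it on 1 or 2 and 5 on all 3. In RECK over Zeo 2 probe sets were higher and 2 lower, against 3.64% and 6.32% of all probe sets with 1 symbol. In RECK/4NQ over Zeo 1 was higher and 5 were lower, against 2.95% and 6.48%, and in RECK over RECK/4NQ 4 were higher and 2 lower, against 5.09% and 4.54%. Of the 20 probe sets that were not the brightest of their gene, 11 were measured on both arrays for RECK over Zeo, and 7 of these had the direction of the brightest one. For RECK/4NQ over Zeo it was 6 of 8, and for RECK over RECK/4NQ 4 of 8. The 5 lower ones in RECK/4NQ were both MYL9 probe sets, 2 of MYH14 and 1 of ROCK1.

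**Figure D3:**
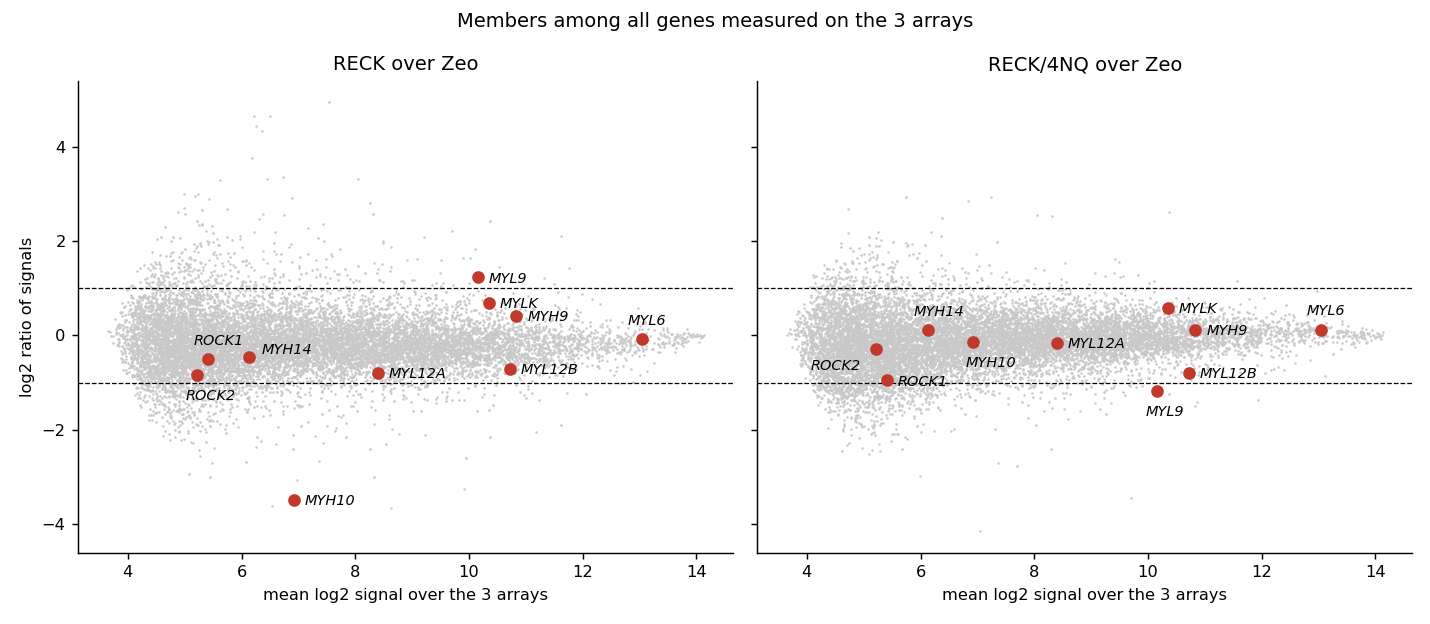
Log2 ratio (y axis) against mean log2 signal over the 3 arrays (x axis), with grey points for the 12406 genes that reach the floor on every array, red points for the members and dashed lines at 2-fold. MYH10 lies far below its level's cloud in RECK over Zeo and inside it in RECK/4NQ over Zeo, and MYL9 is above the upper line on the left and below the lower line on the right.

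Genes beside the members on their chromosomes were used to see whether a member's ratio was shared by its surroundings. The 20 neighbours of MYH10 whose mean signal reached the floor, 10 on each side, had a median log2 ratio of -0.14 in RECK over Zeo, against -3.49 for MYH10, and their lowest was MYH2 at -1.54, a bound, since its RECK signal was below the floor. Those of MYL9 had a median of -0.09 in RECK over Zeo and -0.25 in RECK/4NQ over Zeo, against 1.23 and -1.17 for MYL9. The highest neighbour of MYL9 in RECK over Zeo was EPB41L1 at 0.57, while in RECK/4NQ over Zeo its neighbour SLA2, at -1.30, was lower than MYL9. MYL12A and MYL12B sit side by side on chromosome 18, and here the neighbours were lower too. The 19 such genes around MYL12A had a median of -0.76 in RECK over Zeo, where 17 of 19 were below 0 and 6 were at least 2-fold lower. MYL12A itself was at -0.80 by its brightest probe set and MYL12B at -0.71. The other MYL12A probe sets gave 0.29, 0.40 and -0.09, and the mean of all its probe sets was -0.05.

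ROCK1 is on the same chromosome, and its 20 neighbours had a median log2 ratio of -0.78 in RECK over Zeo, with 16 below 0, against -0.51 for ROCK1. On chromosome 2 the 20 neighbours of ROCK2 had a median of -0.44 with 16 below 0, and ROCK2 was at -0.84. The 20 neighbours of MYLK on chromosome 3 had a median of -0.47 with 13 below 0, while MYLK was at 0.70. Their highest was the adjacent gene MYLK-AS1, at 2.42 in RECK over Zeo and 2.07 in RECK/4NQ over Zeo. Low surroundings were thus not seen on chromosome 18 alone, and not every member with low surroundings was low. In RECK/4NQ over Zeo the median was -0.38 around MYL12A and around MYL12B, with MYL12A at -0.15 and MYL12B at -0.80. Around ROCK1 it was -0.23, with ROCK1 at -0.95, and around ROCK2 -0.08, with ROCK2 at -0.28. Around MYLK it was -0.41, with MYLK at 0.58. Over the 215 genes of chromosome 18 whose mean signal reached the floor, a comparison added after these values were seen, the median was -0.31 in RECK over Zeo, the third lowest of 23 chromosomes, and -0.15 in RECK/4NQ over Zeo. The part of a regional shift in the ratios of MYL12A, MYL12B, ROCK1 and ROCK2 was not tested.

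**Figure D4:**
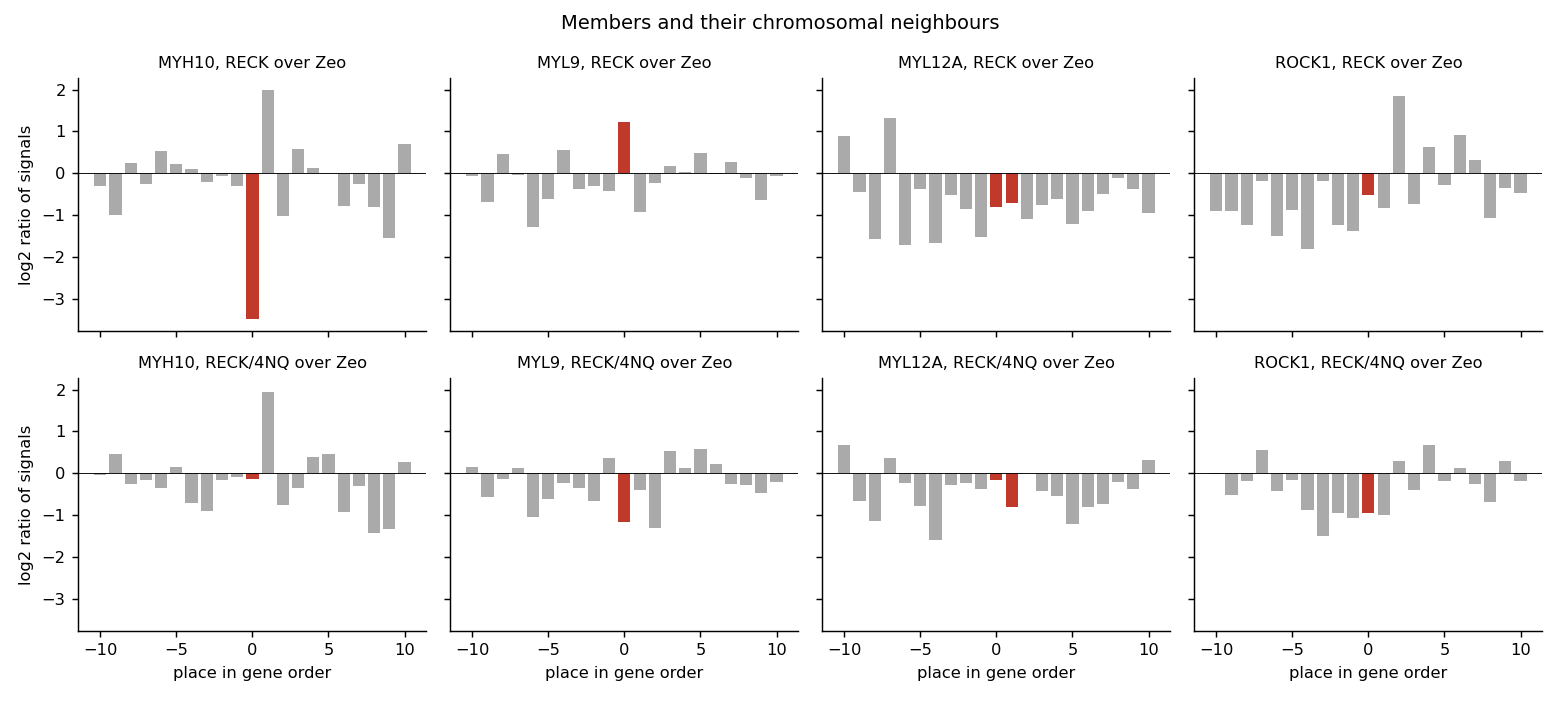
Log2 ratios (y axis) of MYH10, MYL9, MYL12A and ROCK1 in red, with other members in red as well, and of up to 10 genes on each side whose mean signal reached the floor in grey, by place in gene order (x axis), for RECK over Zeo above and RECK/4NQ over Zeo below. In RECK over Zeo MYH10 and MYL9 stand apart from their neighbours, and MYL12A and ROCK1 in RECK over Zeo lie among neighbours with medians of -0.76 and -0.78.

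The genes whose pattern over the 3 arrays was nearest to a member were taken by the distance between log2 signals centred on their own means, among the 12406 genes that reached the floor on every array. Nearest to MYH10 were NMRAL1, an NADPH sensor protein, at a distance of 0.15, TMEM132D at 0.17, the gelatinase gene MMP9 at 0.27, the phosphoinositide phosphatase gene MTMR1 at 0.30 and the potassium channel subunit gene KCNAB2 at 0.43. MMP9 had signals of 203 in RECK, 2306 in RECK/4NQ and 1947 in Zeo. Nearest to MYL9 were the collagen gene COL5A1 at 0.05, the endothelin gene EDN1 at 0.11, DLC1 at 0.11, SARM1, an enzyme that breaks down NAD, at 0.16 and PLEKHA7, a protein of cell junctions, at 0.16. COL5A1 read 493 in RECK, 92.0 in RECK/4NQ and 201 in Zeo. With 3 arrays many genes share a pattern by any measure, and the distances are a description.

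For the gene lists around the motor, the shares of all genes called are those given above. The subunits and inhibitors of the myosin phosphatase had 1 of 10 genes higher and 1 lower in RECK over Zeo, and 1 higher and 2 lower in RECK/4NQ over Zeo. The 8 whose mean signal reached the floor had a median log2 ratio of -0.16 in RECK and -0.15 in RECK/4NQ, against -0.19 and -0.11 for all genes, and list medians below are taken over such genes. PPP1R14C, an inhibitor of protein phosphatase 1, had a signal of 112 in RECK, 35.1 in RECK/4NQ and 5.38, below the floor, in Zeo. That is at least 9.16-fold and at least 2.86-fold above Zeo. PPP1R12B, a targeting subunit of the phosphatase, read 16.8, 18.5 and 45.8 and was 2.72-fold and 2.48-fold lower. Both PPP1R12B calls ended with the mean of probe sets. PPP1R14D, another phosphatase inhibitor gene, read 27.1, 14.4 and 31.1 and was 2.15-fold lower in RECK/4NQ than in Zeo. With a floor at the 60th percentile no gene of this list was lower in either line, and PPP1R14C was called in RECK alone. The catalytic subunit gene PPP1CB, at 336 in RECK, 331 in RECK/4NQ and 453 in Zeo, was not past 2-fold.

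Other kinases of the regulatory light chain had 0 of 13 higher and 2 lower in RECK over Zeo, with a median of -0.39, and 0 higher and 1 lower in RECK/4NQ over Zeo, with a median of -0.22. The lower ones in RECK were MYLK2, the skeletal muscle kinase, at 9.27 in RECK, 13.6 in RECK/4NQ and 38.5 in Zeo, and PKN2, a kinase of the protein kinase C superfamily, at 6.19, 36.7 and 35.0. Their RECK signals were below the floor, so both ratios are bounds, and the list had 0 lower calls in either line once the floor was raised to the 60th percentile. In RECK over RECK/4NQ 2 were higher and 2 lower: CDC42BPA (51.3, 24.1 and 31.6 in RECK, RECK/4NQ and Zeo) and DAPK2 (26.0, 3.70 and 14.5) were higher, and MYLK4 (15.7, 34.0 and 22.7) and PKN2 were lower. The DAPK2 and PKN2 ratios are bounds here too. None of these calls remained with a floor at the 60th percentile or with the mean of probe sets. Other ROCK substrates had no gene of 9 past 2-fold in RECK over Zeo and 1 lower in RECK/4NQ over Zeo, with medians of -0.19 and 0.03. That gene, ADD3 for gamma adducin, read 42.8 in RECK, 38.9 in RECK/4NQ and 80.5 in Zeo, and its call ended after either rescaling and with the mean of probe sets. None of the 3 calmodulin genes had a probe set with 1 symbol.

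Filament partners of nonmuscle myosin had 0 of 12 higher and 1 lower in both comparisons with Zeo, with medians of -0.07 for RECK and -0.31 for RECK/4NQ. The lower one was the same gene, SHROOM2, of a family of actin-binding proteins that recruit ROCK, at 56.7 in RECK, 38.7 in RECK/4NQ and 121 in Zeo. Its call in RECK ended after median centring and after quantile normalisation. S100A4, a calcium-binding protein that takes apart myosin IIA filaments, read 117, 57.6 and 94.4, 2.02-fold higher in RECK than in RECK/4NQ. LLGL1, a cell polarity protein that binds myosin II, was 2.23-fold lower in the same comparison, at 127, 283 and 230. The S100A4 call ended after median centring and the LLGL1 call with the mean of probe sets. Tropomyosins and thin filament genes had none of 10 past 2-fold in RECK over Zeo, with a median of 0.30 against -0.19 for all genes. In RECK/4NQ over Zeo 1 of the 10 was higher, with a median of -0.12 against -0.11. ACTN4, an actin crosslinker, read 3047 in RECK, 4495 in RECK/4NQ and 2019 in Zeo, and CALD1, for caldesmon, read 144, 64.2 and 91.3.

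Muscle myosin II chains had 0 of 19 higher and 4 lower in each comparison with Zeo, with medians of -0.53 in RECK and -0.28 in RECK/4NQ. Among all genes 6.70% were lower in RECK and 7.13% in RECK/4NQ, and with a floor at the 60th percentile the 4 calls became 1 and 0. The 4 lower ones in RECK were MYH2, MYH6, MYL2 and MYL10, and in RECK/4NQ MYH13 was lower and MYL10 was not. In 3 of those called in RECK the signal there was below the floor, and MYL10 read 40.3 in RECK, 78.8 in RECK/4NQ and 102 in Zeo. The list was not of muscle chains alone. It held the light chain MYL6B, not past 2-fold, at 3305 in RECK, 5408 in RECK/4NQ and 4631 in Zeo. Unconventional myosins had 1 of 20 higher and 0 lower in RECK over Zeo, and 0 higher and 1 lower in RECK/4NQ over Zeo, with medians of -0.04 and -0.21. Both calls were MYO1D, a membrane-bound class I myosin, at 75.4 in RECK, 1.87 in RECK/4NQ and 30.4 in Zeo. MYO1D was 2.48-fold higher in RECK than in Zeo and at least 2.48-fold lower in RECK/4NQ than in Zeo, with RECK high and RECK/4NQ low as for MYL9. Both calls ended with the mean of probe sets. MYO7B, at 71.0, 29.8 and 51.9, was 2.38-fold higher in RECK than in RECK/4NQ.

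**Figure D5:**
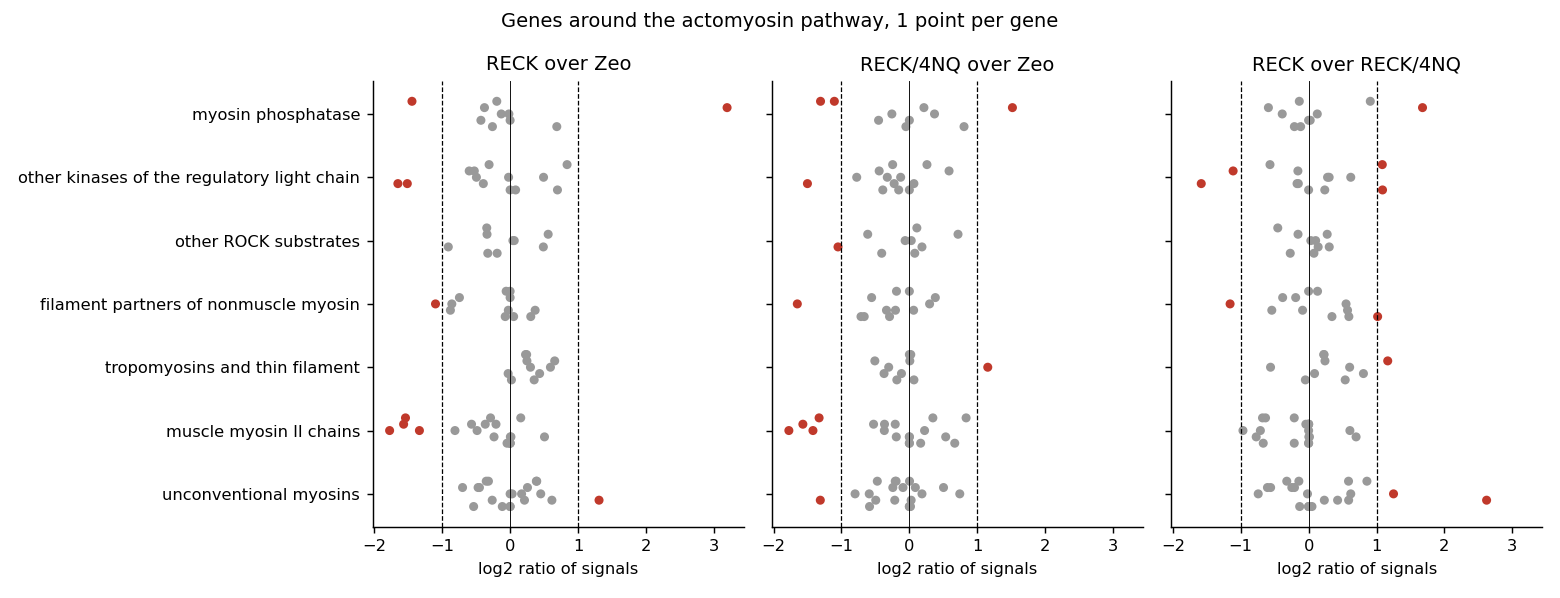
Log2 ratios (x axis) of genes in 7 lists around the motor, 1 point per gene by its brightest probe set, in red where past the dashed lines at 2-fold, for 3 comparisons. The point at the far right of the first row on the left is PPP1R14C, a bound of at least 9.16-fold, and most genes of each list lie between the lines.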

How the data were processed

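Total RNA of 3 HT1080 lines, RECK, RECK/4NQ and Zeo, was labelled with biotin from 8.1 to 15 µg and hybridised to 1 Affymetrix array each, per the labels' protocols. Each deposited value is a MAS5 signal, a linear intensity, for 1 of 54675 probe sets. Per the submitters' processing notes the authors used MAS5; the sources used here give no version, scaling target or detection call. MAS5 subtracts an estimate from mismatch probes, so dim signals are noisy. The number of arrays limits the precision.

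From these, computed with Python 3.11.15, numpy 2.4.6 and pandas 2.3.3, 41091 probe sets had 1 gene symbol, 1801 several and 11777 none in the platform annotation (control probe sets left out), and 41037 of the first matched the RefSeq gene table (GRCh38.p14), which served for names, gene order and promoters. Signals were not rescaled. Genes, floor, 2-fold calls and the local spread (1.4826 times the median absolute deviation) are defined in the results. Alternatives were median centring, quantile normalisation, other floors, folds and probe set choices. Named genes are all members, up to 4 genes past 2-fold with the largest ratios per list and comparison, and the 5 nearest in pattern to MYH10 and to MYL9. PPP1CB, MYL6B and single neighbours were named after their values were seen. Besides these, 6 marker lists were used, and of 9 gene lists 1 is not reported here. Members and lists were chosen with earlier results of these data known.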

Additional observations from a re-analysis of the deposited data

Results flagged for a closer look

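MYL9 moved in opposite directions in the transfected lines. Its log2 ratio to Zeo was 1.23 in RECK and -1.17 in RECK/4NQ, past 2-fold on either side. The difference was not tested, since each line has 1 array. The dimmer MYL9 probe set gave 0.36 and -1.42, so the lower signal in RECK/4NQ was past 2-fold with both probe sets and the higher one in RECK with the brighter alone.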

How the results depend on the processing

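MYH10 stayed at least 2-fold lower in RECK than in both other lines under all 6 changes of scaling, floor and probe sets, and MYL9 at least 2-fold higher in RECK than in RECK/4NQ. No called ratio of MYH10 or MYL9 reversed. With the mean of all probe sets the log2 ratios of MYH10 were -1.74 (RECK to Zeo) and -1.68 (RECK to RECK/4NQ), where the probe set below the floor adds a ratio of 0, and that of MYL9 for RECK over Zeo was 0.79. Without shared probe sets MYL9 was at 0.36 for RECK to Zeo and at 1.78 for RECK to RECK/4NQ. In both cases 0 members were at least 2-fold above Zeo in RECK. Without shared probe sets MYH9 has no value, and ROCK1 is called beside MYL9, so that RECK/4NQ had 2 members past 2-fold below Zeo and 2 below RECK. After median centring 0 members were lower in RECK/4NQ than in Zeo, where genes that reached the floor were left at a median of 0.13. After quantile normalisation 1 member was lower in this comparison. With a threshold of 1.5-fold, RECK had 2 members above and 4 below Zeo and 2 below RECK/4NQ, and RECK/4NQ had 3 below Zeo. With 3-fold, 0 were past it above Zeo in RECK and 0 below it in RECK/4NQ.

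Of all genes 796 were higher and 1325 lower in RECK than in Zeo, which became 1697 and 2439 with a floor at the 20th percentile, 328 and 524 at the 60th, 529 and 787 with the mean of probe sets, 1852 and 3631 at 1.5-fold and 234 and 329 at 3-fold. Rescaling turned the excess of lower genes around, with 1055 higher and 900 lower after median centring and 1064 and 917 after quantile normalisation. For RECK/4NQ over Zeo 556 were higher and 1410 lower, which became 929 and 822 after median centring, 779 and 916 after quantile normalisation, 1413 and 2685 with the lower floor, 165 and 456 with the higher one, 325 and 791 with the mean of probe sets, 1560 and 3510 at 1.5-fold and 119 and 287 at 3-fold. For RECK over RECK/4NQ 1139 were higher and 883 lower, which became 2318 and 1885, 468 and 381, 711 and 505, 2695 and 2625, and 329 and 192 with the lower floor, the higher floor, the mean of probe sets, 1.5-fold and 3-fold. In this comparison 1095 were higher and 1099 lower after median centring, and 1193 and 909 after quantile normalisation. Of the counts for other gene lists and member probe sets, alternatives added after the data were seen, 136 moved by over 1.5 times and 338 did not. Of the counts of members called, 11 moved and 37 did not. Steps between 0 and 1 are among the moves. Of the MYH10 and MYL9 log2 ratios, 5 moved by more than the spread of genes of like level and 31 did not. Dim members (MYH14, ROCK1, ROCK2) are limited by signal over background, and with 1 array per line no ratio has a measured error.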
